A study of Mus musculus with 18 samples.

Results

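The constitutive beta ring of the 20S proteasome is made from 7 genes, Psmb1 to Psmb7, and their messenger RNA was followed in NIH-3T3 cells, an immortalized line of mouse embryonic fibroblasts. The genes were chosen by symbol, under a rule that used no measured value, as 7 of 23420 gene rows in the deposited count table. Earlier results of these data were known when that choice was made. All 7 passed the filter on low counts and were among the 11762 genes tested. Cells of the wild-type line (WT) and of a derived line in which Nrf1 had been knocked out (Nrf1KO) were each given either the vehicle DMSO or carfilzomib (CFZ, 200 nM) over 6 h or over 24 h, with 3 biological replicates in each of these 6 groups. All groups shared the parental line and the medium with serum, and the labels gave no duration for DMSO. Nrf1KO was 1 previously made line, so that the loss of Nrf1 and any other difference between these lines cannot be told apart. The comparisons ask how the beta ring genes responded to CFZ at an early and a late time, and whether that response differed in cells without Nrf1.

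The 20S core is a barrel of stacked rings, with an outer alpha ring at each end that gates entry and a pair of inner beta rings that hold the protease sites. Psmb5, Psmb6 and Psmb7 encode the catalytic subunits, known as beta5 (chymotrypsin-like), beta1 (caspase-like) and beta2 (trypsin-like), whereas Psmb1, Psmb2, Psmb3 and Psmb4 encode the subunits beta6, beta4, beta3 and beta7, which have no protease site. CFZ is an epoxyketone that binds the beta5 site irreversibly. Nrf1, the product of the gene Nfe2l1, is a transcription factor of the endoplasmic reticulum membrane that is known to activate proteasome genes through antioxidant response elements when the proteasome is inhibited.

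Total counts per library ranged from 8333148 to 23917081, and replicates of a group correlated at 0.994 or more (Pearson r of log2 values over genes). Nfe2l1 was read first as a check of the line labels, although a CRISPR/Cas9 edit need not remove the transcript. In counts-per-million values (CPM, scaled by the trimmed mean of M-values, TMM), Nfe2l1 measured 448 ± 9.87 (SD, n = 3 here and below) in WT DMSO and 180.1 ± 5.27 in Nrf1KO DMSO. After CFZ for 6 h it measured 642 ± 12.4 in WT and 419 ± 7.19 in Nrf1KO, and after 24 h it measured 565 ± 13.4 and 204 ± 4.45, with Nrf1KO the lower line in each treatment and no overlap between lines. The summed CPM of 8 fibroblast markers was 32680 to 35533 in WT DMSO and 27270 to 33547 in Nrf1KO DMSO, while Lum, 1 of these 8, was at 0 in 12 libraries. The fibroblast sum was 8050 to 8343 in WT and 10795 to 12825 in Nrf1KO after CFZ for 24 h. Of 10 markers of other cell types, Epcam, Krt18 and Cd3e were at 0 in all libraries, and Cdh1, an epithelial cadherin, was the highest at up to 13.0 CPM. The summed CPM of the 4 epithelial markers was 5.90 to 6.36 in WT DMSO, 10.8 to 13.0 in Nrf1KO DMSO and at most 0.813 after CFZ for 24 h. That of the 3 endothelial markers went from 0.295 to 0.456 in WT DMSO to 2.54 to 3.47 at 24 h, and in Nrf1KO from 0.386 to 0.591 to 3.38 to 3.83. That of the 3 leukocyte markers went from 0.456 to 0.928 in WT DMSO to 2.74 to 3.78 at 24 h, and in Nrf1KO from 1.64 to 1.97 to 5.56 to 5.77. The part of these shifts in the results was not tested.

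Upstream sequence is shown for the 4 of 7 genes with an entry in the RefSeq promoter table (GRCm38.p6), because the beta ring genes moved together in WT cells and much less in cells without Nrf1. The windows scanned held 300 bases, from 250 before to 50 after the start site, on both strands, for TGACNNNGC and TGAGNNNGC, which are 2 forms of the antioxidant response element core, and for CCAAT, the box bound by NF-Y. The printed 250 bases end just before the start site, read 5′ to 3′ on the strand of the gene, and the matches are in capitals. The printed bases of Psmb3 lie at chr11:97703184-97703433 on the plus strand and those of Psmb4 at chr3:94886959-94887208 on the minus strand. Those of Psmb5 lie at chr14:54617996-54618245 on the minus strand and those of Psmb6 at chr11:70525107-70525356 on the plus strand. Start sites are those of the promoter table. The GENCODE genes given below begin inside the printed bases for Psmb3, Psmb4 and Psmb5. By those bounds the TGAGAAAGC match of Psmb3 lies within the gene.
Psmb5: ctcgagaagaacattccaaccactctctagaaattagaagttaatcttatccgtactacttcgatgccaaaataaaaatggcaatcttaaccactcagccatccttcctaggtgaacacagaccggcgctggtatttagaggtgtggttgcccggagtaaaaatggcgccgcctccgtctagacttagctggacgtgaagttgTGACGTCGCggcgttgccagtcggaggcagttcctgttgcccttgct
Psmb6: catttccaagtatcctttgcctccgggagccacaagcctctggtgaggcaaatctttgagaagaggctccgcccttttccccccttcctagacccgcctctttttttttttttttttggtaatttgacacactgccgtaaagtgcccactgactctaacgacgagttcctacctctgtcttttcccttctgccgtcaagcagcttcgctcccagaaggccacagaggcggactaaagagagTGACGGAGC
Psmb3: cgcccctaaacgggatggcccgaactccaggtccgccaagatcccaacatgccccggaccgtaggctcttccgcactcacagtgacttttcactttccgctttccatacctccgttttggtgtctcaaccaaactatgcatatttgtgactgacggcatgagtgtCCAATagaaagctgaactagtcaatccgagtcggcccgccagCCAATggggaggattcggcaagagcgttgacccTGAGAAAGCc
Psmb4: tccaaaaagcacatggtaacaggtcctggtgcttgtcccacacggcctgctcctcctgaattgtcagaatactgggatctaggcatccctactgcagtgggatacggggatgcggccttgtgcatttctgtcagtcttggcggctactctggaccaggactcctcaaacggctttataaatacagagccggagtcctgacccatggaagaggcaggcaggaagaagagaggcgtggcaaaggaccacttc

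Psmb5 held TGACGTCGC from -47 to -39 and Psmb6 held TGACGGAGC from -9 to -1, counted from the start site, whereas Psmb3 held TGAGAAAGC from -10 to -2 and CCAAT at -85 to -81 and at -43 to -39. Psmb4 held none of these letters in its window. Over all 32851 promoters of the table, TGACNNNGC was found in 12.4%, TGAGNNNGC in 17.6%, either of these in 27.8% and CCAAT in 37.4%. A match of letters is a description and no sign that a factor was bound. In WT at 24 h the log2 change after CFZ was 2.07 for Psmb3, 1.40 for Psmb4, 1.40 for Psmb6 and 0.77 for Psmb5. Any link between the matches and these responses was not tested. Promoters of Psmb1, Psmb2 and Psmb7 were not analysed here.

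Psmb5, the main target of CFZ, rose in WT cells and did not rise in Nrf1KO cells. The gene lies at chr14:54614119-54618022 on the minus strand (GENCODE M21, GRCm38). Its CPM was 57.2, 56.7 and 51.0 in the 3 WT DMSO libraries, 85.3, 83.6 and 76.4 after CFZ for 6 h and 93.9, 94.0 and 95.0 after 24 h. The WT groups did not overlap and stepped up from DMSO to 6 h to 24 h. In Nrf1KO cells the CPM was 41.8, 46.5 and 41.5 in DMSO, 34.3, 37.4 and 40.6 at 6 h and 35.7, 39.6 and 44.5 at 24 h. The 6 h libraries lay below the DMSO libraries, the 24 h libraries overlapped with both, and all 9 Nrf1KO libraries lay below all 9 WT libraries. That full separation of the lines also held for Psmb4, and its share over all genes was not computed. On the log2 scale Psmb5 changed in WT by 0.57 ± 0.058 at 6 h (edgeR quasi-likelihood test, Benjamini-Hochberg adjusted p = 3.44e-10) and by 0.77 ± 0.057 at 24 h (edgeR adjusted p = 6.70e-14), where ± is the standard error. In Nrf1KO the values were -0.22 ± 0.070 at 6 h (edgeR adjusted p = 0.00723) and -0.11 ± 0.065 at 24 h (edgeR adjusted p = 0.125). The fall at 6 h rests on 1 library, since without Nrf1KO CFZ 6 h replicate 1 it was -0.15 with an edgeR adjusted p of 0.0920. The 24 h value depends on 1 library as well, since without Nrf1KO CFZ 24 h replicate 3 it was -0.22 with an edgeR adjusted p of 0.00278. Of the exonic bases of Psmb5, 12.1% overlap the microRNA gene Mir686 on the same strand, and 14.7% of its stretches as long as 1 read also occur in Gm3375, so its level is less certain than that of the other genes.

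Psmb6, the caspase-like subunit, was the catalytic gene with the largest WT response. It lies at chr11:70525367-70527858 on the plus strand. Its CPM was 139.6, 134 and 136 in WT DMSO, 294, 283 and 282 at 6 h and 354, 371 and 359 at 24 h. No library overlapped between these groups, and the log2 change was 1.07 ± 0.036 at 6 h and 1.40 ± 0.036 at 24 h, or 2.09-fold and 2.64-fold. In Nrf1KO it was 104, 107 and 107 in DMSO, 106, 109 and 110.1 at 6 h and 134, 140.2 and 150.0 at 24 h. The first 2 of these groups overlapped, and the 24 h group lay above both, with a log2 change of 0.41 ± 0.038 against DMSO (edgeR adjusted p = 1.23e-11), the largest among the 7 genes in Nrf1KO. The 24 h libraries of Nrf1KO lay on both sides of the WT DMSO libraries, 1 below all of them and 2 above.

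Psmb7, the trypsin-like subunit, behaved between Psmb5 and Psmb6 in WT. It lies at chr2:38588036-38644087 on the minus strand, and 11.8% of its exonic bases overlap Nek6 on the opposite strand. Its CPM was 128, 132 and 133 in WT DMSO, 255, 235 and 251 at 6 h and 304, 309.8 and 328 at 24 h. These groups were separate, with log2 changes of 0.91 ± 0.039 and 1.26 ± 0.039. In Nrf1KO it was 105, 106 and 107 in DMSO, 108, 112 and 109 at 6 h and 127, 133 and 142 at 24 h. All 3 libraries at 6 h lay above DMSO by a margin that did not pass the test (0.052 ± 0.043, edgeR adjusted p = 0.289), and at 24 h Psmb7 rose by 0.34 ± 0.041 (edgeR adjusted p = 4.78e-09).

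Psmb3 had the widest range of the ring. This subunit, beta3, has no protease site, and its gene lies at chr11:97703399-97713500 on the plus strand. Its CPM was 122, 119 and 117 in WT DMSO, 349, 344 and 341 at 6 h and 493, 500.2 and 508 at 24 h. It rose 2.89-fold at 6 h and 4.19-fold at 24 h, the largest WT responses of the 7 genes at both times (log2 1.53 ± 0.035 and 2.07 ± 0.035). In Nrf1KO it was 85.8, 89.9 and 87.1 in DMSO, 80.7, 83.7 and 78.5 at 6 h and 107, 116 and 119 at 24 h. The 6 h libraries lay below DMSO (-0.11 ± 0.042, edgeR adjusted p = 0.0204) and the 24 h libraries above it (0.38 ± 0.038, edgeR adjusted p = 1.13e-10). The 6 h call was lost without any 1 of 3 libraries, Nrf1KO DMSO replicate 2, Nrf1KO CFZ 6 h replicate 1 or Nrf1KO CFZ 6 h replicate 3, with edgeR adjusted p of 0.0761, 0.0635 and 0.0792. The highest group mean of Psmb3, in WT at 24 h, was 6.18 times its lowest, in Nrf1KO at 6 h.

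Psmb2, which encodes beta4, followed Psmb3 in WT. It lies at chr4:126677630-126709714 on the plus strand. Its CPM was 129, 126 and 127 in WT DMSO, 344, 349 and 333 at 6 h and 379.9, 399.8 and 391 at 24 h. The 6 h step carried most of this change, 2.68-fold, against 1.14-fold from 6 h to 24 h. In Nrf1KO it was 103, 100.2 and 110.0 in DMSO, 109, 117 and 103 at 6 h and 109, 121 and 128 at 24 h. These groups overlapped, and the 24 h change of 0.19 ± 0.048 passed the test (edgeR adjusted p = 5.59e-04) but not with upper-quartile scaling (edgeR adjusted p = 0.123) or scaling by library size alone (edgeR adjusted p = 0.905). Without Nrf1KO CFZ 24 h replicate 3 it was 0.10 (edgeR adjusted p = 0.0486).

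Psmb4, which encodes beta7, rose in WT and was not called changed by CFZ in Nrf1KO with TMM scaling. It lies at chr3:94884093-94886961 on the minus strand. Its CPM was 132, 130.2 and 134 in WT DMSO, 321, 302 and 304 at 6 h and 347, 349 and 352 at 24 h. The WT groups did not overlap, with log2 changes of 1.22 ± 0.039 and 1.40 ± 0.039. In Nrf1KO it was 106, 113 and 111 in DMSO, 111, 112 and 108 at 6 h and 109.7, 111 and 126 at 24 h. The Nrf1KO groups overlapped, the log2 values were 0.0084 ± 0.044 and 0.073 ± 0.042 (edgeR adjusted p = 0.876 and 0.106), and both turned negative with upper-quartile scaling and with scaling by library size alone. With library size alone both were called lower (-0.10 and -0.11, edgeR adjusted p = 0.0329 and 0.0152).

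Psmb1, which encodes beta6, had the smallest WT response of the ring after Psmb5. It lies at chr17:15475021-15499751 on the minus strand. Its CPM was 239.5, 239 and 232 in WT DMSO, 405, 412 and 404 at 6 h and 454, 486 and 465 at 24 h. These groups did not overlap, with log2 changes of 0.78 ± 0.042 and 0.98 ± 0.042. In Nrf1KO it was 199, 203 and 205 in DMSO, 190.0, 188 and 194 at 6 h and 227, 245 and 274 at 24 h. The 6 h libraries lay below DMSO with a change that did not pass the test (-0.087 ± 0.045, edgeR adjusted p = 0.0833), though it did pass with DESeq2 (adjusted p = 0.0468), with both other scalings and with no expression filter. At 24 h Psmb1 rose by 0.30 ± 0.043 (edgeR adjusted p = 1.66e-07), and its libraries lay on both sides of WT DMSO, 1 below and 2 above. This rise was 0.19 without Nrf1KO CFZ 24 h replicate 3, 0.12 with library size alone and 0.19 with upper-quartile scaling, and it passed the test in each.

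**Figure D1:**
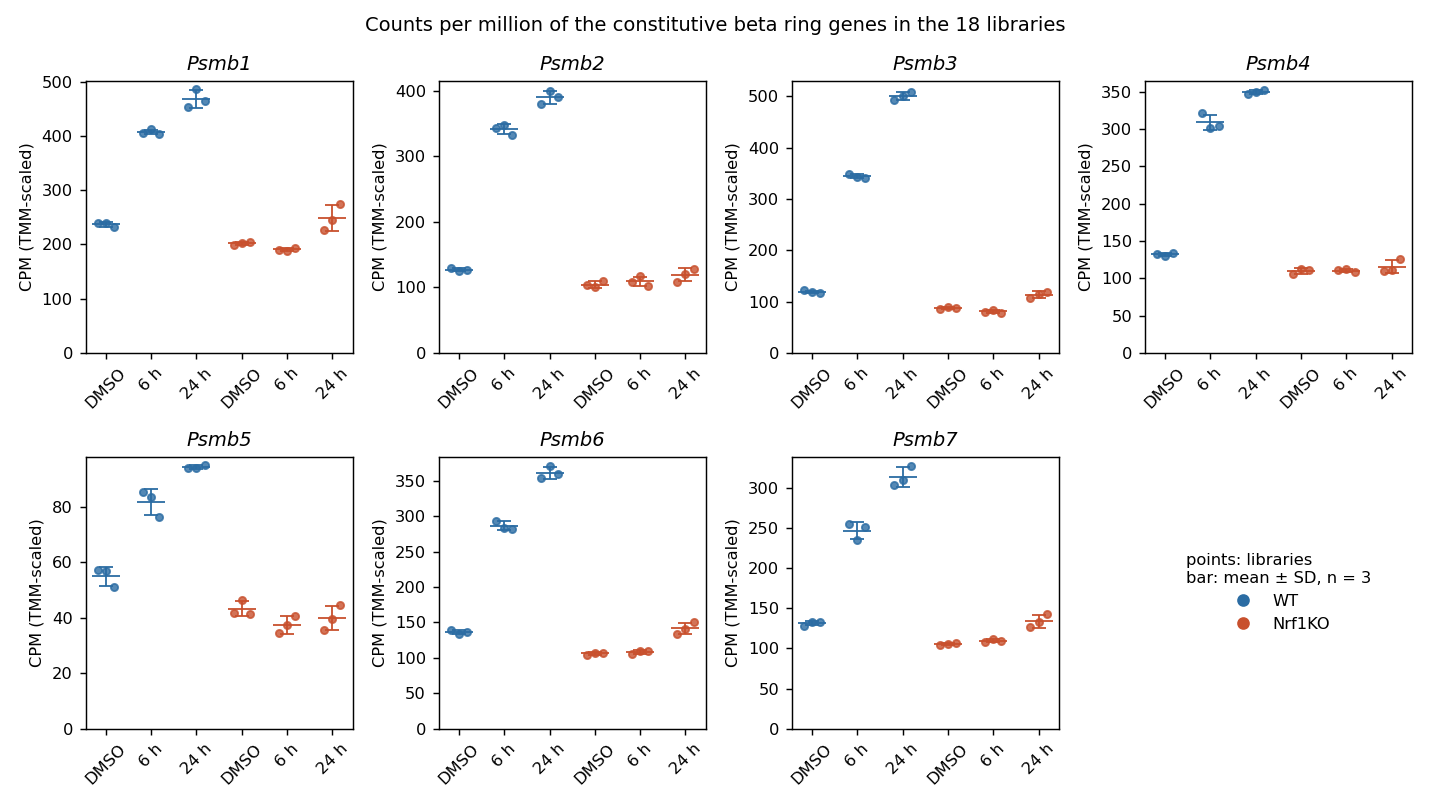
TMM-scaled CPM of Psmb1 to Psmb7 (y axis, from 0, a separate scale for each gene) in the 6 groups (x axis), with a point for each of the 18 libraries and a bar for the mean ± SD of 3 libraries. In each panel the 3 WT groups step up from DMSO to 6 h to 24 h without overlap, and the Nrf1KO libraries lie below the WT libraries of the same treatment. All WT libraries at 24 h lay above those at 6 h for 38.5% of all genes.

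In WT cells all 7 genes rose after CFZ at 6 h, where 35.6% of all genes tested were called higher, and 4 of the 7 rose at least 2-fold, against 3.98% of all genes. At 24 h all 7 rose again, against 43.2% of all genes, and 5 rose at least 2-fold, against 10.5%. The log2 changes ran from 0.57 to 1.53 at 6 h, with edgeR adjusted p from 1.26e-26 to 3.44e-10, and from 0.77 to 2.07 at 24 h, with edgeR adjusted p from 1.39e-30 to 6.70e-14. The median of the 7 was 1.07 at 6 h and 1.40 at 24 h, beside a median over all genes of -0.02 and 0.02. Ordered by size over the 11762 genes, Psmb3 was at place 216 and Psmb5 at place 1410 at 6 h, and they were at places 258 and 1937 at 24 h. Every WT library with CFZ lay above every WT DMSO library for all 7 genes, a separation in that direction seen for 36.7% of all genes at 6 h and 43.4% at 24 h.

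From 6 h to 24 h in WT all 7 genes rose further, against 36.9% of all genes, by 0.18 to 0.54 on the log2 scale. For all 7 every library at 24 h lay above every library at 6 h, as it did for 38.5% of all genes. Psmb3 rose most (0.54 ± 0.033), followed by Psmb7 (0.35 ± 0.038) and Psmb6 (0.34 ± 0.034). Psmb4 rose least (0.18 ± 0.037, edgeR adjusted p = 9.16e-05). The step of Psmb5 (0.21 ± 0.056) lost its call without WT CFZ 6 h replicate 3 (0.12, edgeR adjusted p = 0.0823).

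In Nrf1KO cells the ring genes had no response at 6 h like that in WT. At 6 h none of the 7 was called higher, against 34.5% of all genes, and the same count of 0 was found at an unadjusted edgeR p under 0.05 and with DESeq2. Psmb3 and Psmb5 were called lower, against 35.0% of all genes, and the median of the 7 was 0.0084. All 6 h libraries lay below all DMSO libraries for Psmb1, Psmb3 and Psmb5, against 35.6% of all genes. They lay above all DMSO libraries for Psmb7, against 35.0% of all genes. At 24 h 5 of 7 were called higher, against 44.4% of all genes, namely Psmb6, Psmb3, Psmb7, Psmb1 and Psmb2, with a median of the 7 of 0.30 beside 0.03 over all genes. With upper-quartile scaling 4 were called higher and Psmb5 lower at 24 h, beside 4585 and 5442 of the 11762 genes tested. With library size alone 4 were called higher and Psmb4 and Psmb5 lower, beside 4175 and 5857 of the genes tested. The same 5 genes rose from 6 h to 24 h, against 38.7% of all genes, with the call of Psmb2 lost without Nrf1KO CFZ 6 h replicate 1 or 3 or Nrf1KO CFZ 24 h replicate 2 or 3 (edgeR adjusted p from 0.0830 to 0.355), with upper-quartile scaling (0.129), with library size alone (0.362) or with the compared groups only (0.0818), and Psmb5 called higher without Nrf1KO CFZ 24 h replicate 1 (0.17, edgeR adjusted p = 0.0345). The 24 h libraries lay above all DMSO libraries for Psmb1, Psmb3, Psmb6 and Psmb7, against 43.8% of all genes. For the same genes they lay above all 6 h libraries, against 38.6% of all genes. No member reached a 2-fold change in Nrf1KO, and the largest was the 1.33-fold change of Psmb6 at 24 h against DMSO and the 1.40-fold change of Psmb3 at 24 h against 6 h.

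These Nrf1KO values lay close enough to 0 for the scaling to matter. Scaling by library size alone moved the median of all genes by -0.11 at 6 h and -0.18 at 24 h in Nrf1KO and by -0.13 and -0.10 in WT, and upper-quartile scaling moved it by -0.07 and -0.11 in Nrf1KO and by -0.11 and -0.13 in WT. Taken relative to the median of all genes, the 24 h change in Nrf1KO was 0.38 for Psmb6, 0.35 for Psmb3, 0.31 for Psmb7, 0.27 for Psmb1, 0.16 for Psmb2, 0.04 for Psmb4 and -0.14 for Psmb5 with TMM scaling. With library size alone and no such reference, the 24 h change was 0.23 for Psmb6, 0.20 for Psmb3, 0.16 for Psmb7, 0.12 for Psmb1 and 0.0062 for Psmb2, and the 6 h change was -0.22 for Psmb3 and -0.33 for Psmb5. Scaling moves all genes and their median by about the same amount, so values relative to that median barely change with it. For Psmb5 at 24 h in Nrf1KO the value was -0.137 with TMM and -0.139 with library size alone. Equal signs over scalings are therefore no test of these changes. Psmb5 was the gene below that median at 24 h. Nrf1KO CFZ 24 h replicate 3 had the highest level and replicate 1 the lowest for all 7 genes. WT CFZ 24 h replicate 1 was also the lowest of its group for all 7. The share of all genes with such an order was not computed, so this is not a trait of the ring.

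**Figure D2:**
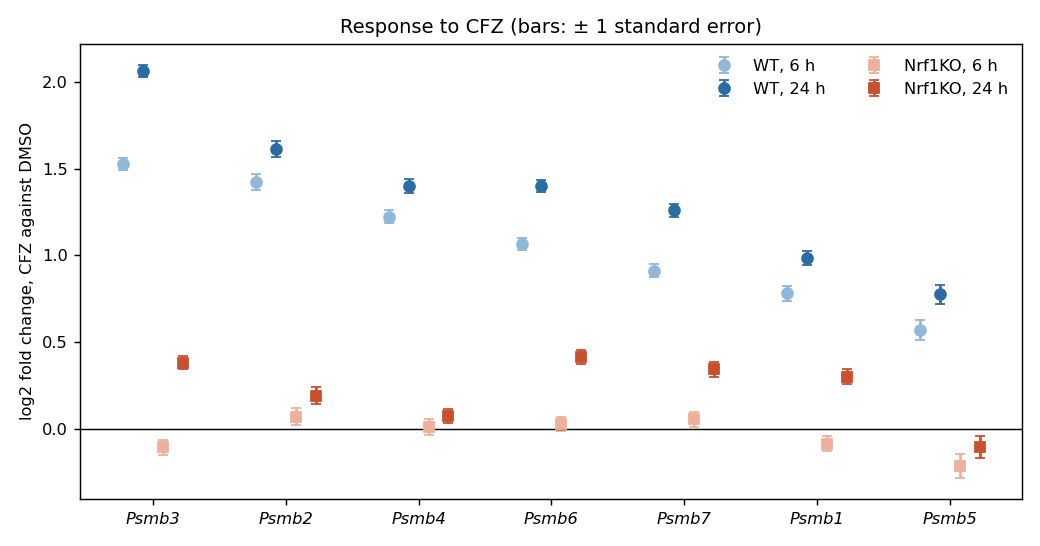
Log2 fold change of CFZ against DMSO (y axis) for each gene (x axis, ordered by the WT 6 h response), for WT (circles) and Nrf1KO (squares) at 6 h and 24 h, with bars for ± 1 standard error of the edgeR fit over 3 libraries a group. WT values run from 0.57 to 2.07 and Nrf1KO values from -0.22 to 0.41, and with other scalings the signs of Psmb2, Psmb4, Psmb6 and Psmb7 at 6 h and of Psmb4 at 24 h in Nrf1KO turn negative.

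Compared directly, all 7 genes were lower in Nrf1KO than in WT under each treatment. In DMSO the difference was small, from -0.45 for Psmb3 to -0.23 for Psmb1 on the log2 scale, with edgeR adjusted p from 1.63e-11 to 4.28e-05, against 29.1% of all genes called lower. After CFZ it was larger, from -2.09 for Psmb3 to -1.10 for Psmb1 at 6 h, against 30.8% of all genes called lower. At 24 h it ran from -2.13 for Psmb3 to -0.91 for Psmb1, against 36.4%. For all 7 genes the lines did not overlap under any treatment, with Nrf1KO below WT, a separation in that direction seen for 31.8% of all genes in DMSO, 32.8% at 6 h and 36.7% at 24 h. Set beside untreated WT cells, Nrf1KO cells after CFZ for 24 h had all libraries below WT DMSO for Psmb4 and Psmb5 only, against 41.9% of all genes, and overlapped with WT DMSO for Psmb1, Psmb2, Psmb3, Psmb6 and Psmb7.

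The difference between lines in the response itself was tested as an interaction, the Nrf1KO response less the WT response. All 7 genes were called lower at 6 h, against 18.4% of all genes, and at 24 h, against 30.0%. At 6 h it was largest for Psmb3 (-1.64 ± 0.054, edgeR adjusted p = 1.12e-20) and smallest for Psmb5 (-0.79 ± 0.091, edgeR adjusted p = 2.57e-08). At 24 h it was again largest for Psmb3 (-1.69 ± 0.052), and smallest for Psmb1 (-0.69 ± 0.060, edgeR adjusted p = 2.11e-11). Of all genes tested, 0.782% had a lower interaction value than Psmb3 at 6 h. The step from 6 h to 24 h differed between lines for Psmb1 alone among the 7, a count no higher than in all genes. Of all genes, 43.0% were called in either direction and 20.7% higher. Psmb1 had a larger rise in Nrf1KO (0.39 ± 0.045) than in WT (0.20 ± 0.041). That difference (0.18 ± 0.061, edgeR adjusted p = 0.0154) lost its call when counts were scaled by library size alone, where the edgeR adjusted p was 0.256. The comparisons of the lines share their libraries with the comparisons of CFZ, and the interactions are built from both.

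The ring genes did not rise by 1 common factor in WT. The order of the responses was Psmb3, Psmb2, Psmb4, Psmb6, Psmb7, Psmb1 and Psmb5 at both times. For neighbours in this order the log2 ratio of their counts did not overlap between CFZ and DMSO libraries, except for Psmb7 and Psmb1 at 6 h, with a difference of 0.13, and Psmb4 and Psmb6 at 24 h, with a difference of 0.0014. The pairs were set by these same responses, and no share over pairs of other genes was computed. Levels of single genes did not overlap between these groups for 74.2% of all genes at 6 h and 84.6% at 24 h. The 3 catalytic genes had a median response of 0.91 at 6 h and 1.26 at 24 h, and the 4 genes without a protease site 1.32 and 1.51, although Psmb1 of the second set rose less than Psmb6 and Psmb7. In Nrf1KO at 24 h the order was Psmb6, Psmb3, Psmb7, Psmb1, Psmb2, Psmb4 and Psmb5, where the ratios of Psmb1 to Psmb2 and of Psmb4 to Psmb5 did not overlap with DMSO and those of the 4 other neighbouring pairs did. At 6 h in Nrf1KO the ratios of all 6 neighbouring pairs overlapped with DMSO.

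A ratio within a library does not depend on how libraries are scaled, so each gene was also set against the ring, as its log2 count less the mean log2 count of the 7 genes in the same library. These ratios are a description without a test, and they sum to 0 in each library. Psmb5 was -1.18 ± 0.075 (SD) in WT DMSO, -1.68 ± 0.061 at 6 h and -1.76 ± 0.021 at 24 h. It thus lost ground to the ring by 0.50 and then 0.58, and its share of the summed counts of the 7 genes was 5.86% ± 0.32 (SD) in WT DMSO and 3.81% ± 0.065 at 24 h. In Nrf1KO Psmb5 was -1.21 ± 0.078, -1.38 ± 0.11 and -1.55 ± 0.052 in the same order. The 24 h libraries of Nrf1KO lay below the DMSO libraries, a change of -0.34, while the 6 h libraries overlapped with them.

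The other ring genes shifted less uniformly. Psmb3 gained 0.46 ± 0.0084 at 6 h and 0.71 ± 0.0091 at 24 h in WT, whereas in Nrf1KO it changed by -0.077 ± 0.024 at 6 h and 0.15 ± 0.026 at 24 h, both without overlap with DMSO. Psmb2 gained 0.35 ± 0.020 and 0.26 ± 0.014 in WT, and in Nrf1KO both CFZ groups overlapped with DMSO, with the 6 h libraries above the 24 h libraries. Psmb1 changed by -0.29 ± 0.021 and -0.37 ± 0.021 in WT. The catalytic pair Psmb6 and Psmb7 gained in Nrf1KO, by 0.063 ± 0.013 and 0.19 ± 0.017 for Psmb6 and by 0.089 ± 0.010 and 0.12 ± 0.017 for Psmb7. Psmb7 went the other way in WT, with -0.10 ± 0.036 at 24 h, and Psmb4 gained 0.15 ± 0.024 in WT at 6 h and changed by -0.15 ± 0.027 in Nrf1KO at 24 h. Measured as the log2 change in the share of the summed counts instead, 16 of 28 of these ratios moved by more than the spread between replicates, and the 24 h gain in Nrf1KO was 0.15 for Psmb6, 0.077 for Psmb7 and 0.11 for Psmb3.

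**Figure D3:**
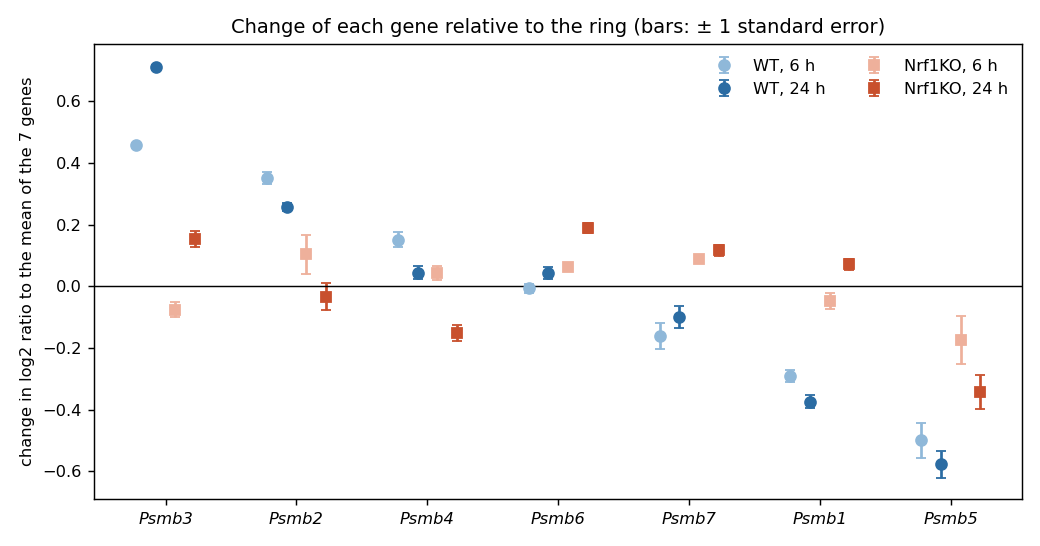
Change after CFZ in the log2 ratio of each gene's count to the mean of the 7 genes in the same library (y axis), by gene (x axis, in the order of the WT 6 h response), for WT (circles) and Nrf1KO (squares) at 6 h and 24 h, with bars for ± 1 standard error from 3 libraries a group. Psmb3 stands at 0.46 and 0.71 in WT, and Psmb5 lies below 0 in all 4 comparisons, from -0.58 to -0.17.

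Levels of different genes can be compared only per length, and here the answer depended on which length was used. On the scale of CPM per kb of the APPRIS principal transcript, the level of Psmb5 was 61.2 ± 3.80 (SD) in WT DMSO and that of Psmb6 was 171 ± 3.37. With this length Psmb5 had the lowest level in every group, and in WT at 24 h the highest level was 653 ± 10.0 for Psmb3, which was 6.23 times that of Psmb5. Per kb of all exons together, Psmb2 had the highest level and Psmb7 the lowest in every group, with Psmb5 between them. The union of exons of Psmb7 holds 3421 bases and its principal transcript 1160, whereas both lengths are 899 bases for Psmb5. The order of all 7 genes and its ends therefore depended on the length, although Psmb6 lay above Psmb5 and Psmb2 above Psmb7 in all 6 groups with both lengths and with that of the longest transcript.

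The replaceable beta subunits, which take the place of the catalytic subunits in the immunoproteasome or the thymus, did not share the WT response. Psmb9, the counterpart of Psmb6, fell in WT at 24 h by 1.52 on the log2 scale (edgeR adjusted p = 3.10e-06) and in Nrf1KO at 24 h by 0.88 (edgeR adjusted p = 0.00155), with levels of 0.660 to 3.58 CPM over all libraries. Psmb10, the counterpart of Psmb7, had 9.79 to 13.9 CPM, with log2 values of -0.16 ± 0.091 in WT at 24 h (edgeR adjusted p = 0.0917) and -0.22 ± 0.085 in Nrf1KO (edgeR adjusted p = 0.0158). Psmb8, the counterpart of Psmb5, had at most 2 counts in a library, and the thymus subunit Psmb11 had 0 in all 18 libraries. For 1 library read alone, a count of 0 leaves room for up to 3 expected counts, by counting error alone. With 0 in all 18 libraries, the room for Psmb11 in each library was smaller than that.

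The alpha ring and most subunits of the 19S particle rose in WT as the beta ring did. In the alpha ring, which forms the gate, 7 of 7 genes were called higher at both times, beside the 35.6% and 43.2% of all genes given above, and their median was 1.02 at 6 h and 1.26 at 24 h. Of the 19S ATPases, which unfold substrates, 6 of 6 were called higher at both times (median 1.45 and 1.49), with Psmc4 at 2.04 ± 0.033 at 24 h. Among the other 19S subunits, 12 of 13 were called higher at both times (median 1.20 and 1.55), and Shfm1 was called lower. In Nrf1KO at 24 h the medians were 0.20 for the alpha ring, 0.41 for the ATPases and 0.39 for the other 19S subunits, beside 0.30 for the beta ring. Psmd11, a scaffold subunit of the 19S lid, stood above these medians in Nrf1KO at 1.32 ± 0.034, and Psma4 of the alpha ring fell by 0.36. The interaction was called lower for 7 of 7 alpha ring genes and 6 of 6 ATPases at both times and for 12 and then 13 of the 13 other 19S subunits, against 18.4% of all genes at 6 h and 30.0% at 24 h.

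Genes that help proteasome assembly went in both directions. Pomp, the maturation factor on which beta subunits assemble, rose in WT by 0.79 ± 0.049 at 6 h and 1.34 ± 0.048 at 24 h. In Nrf1KO Pomp was called lower at 6 h (-0.43 ± 0.053, edgeR adjusted p = 1.47e-08) and higher at 24 h (0.26 ± 0.048, edgeR adjusted p = 7.32e-06). Psmg1, a chaperone of alpha ring assembly, fell at 24 h in WT by 1.21 and in Nrf1KO by 1.30. Of the 5 assembly chaperones, 2 were called higher and 3 lower in WT at 24 h, and 1 higher and 3 lower in Nrf1KO. Of all genes, 43.2% were called higher and 40.5% lower in WT at 24 h and 44.4% and 41.1% in Nrf1KO, so that this split was near that of all genes. Among the activators and the inhibitor, 4 of 5 were called higher at 24 h in each line, against those 43.2% and 44.4% of all genes. At 6 h 3 were called higher and 2 lower in each line. All genes had 35.6% called higher and 36.2% lower in WT at 6 h, and 34.5% and 35.0% in Nrf1KO. The activators and the inhibitor were led at 24 h in WT by the activator Psme4 (1.73 ± 0.033) and in Nrf1KO by the inhibitor Psmf1 (1.26 ± 0.046).

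**Figure D4:**
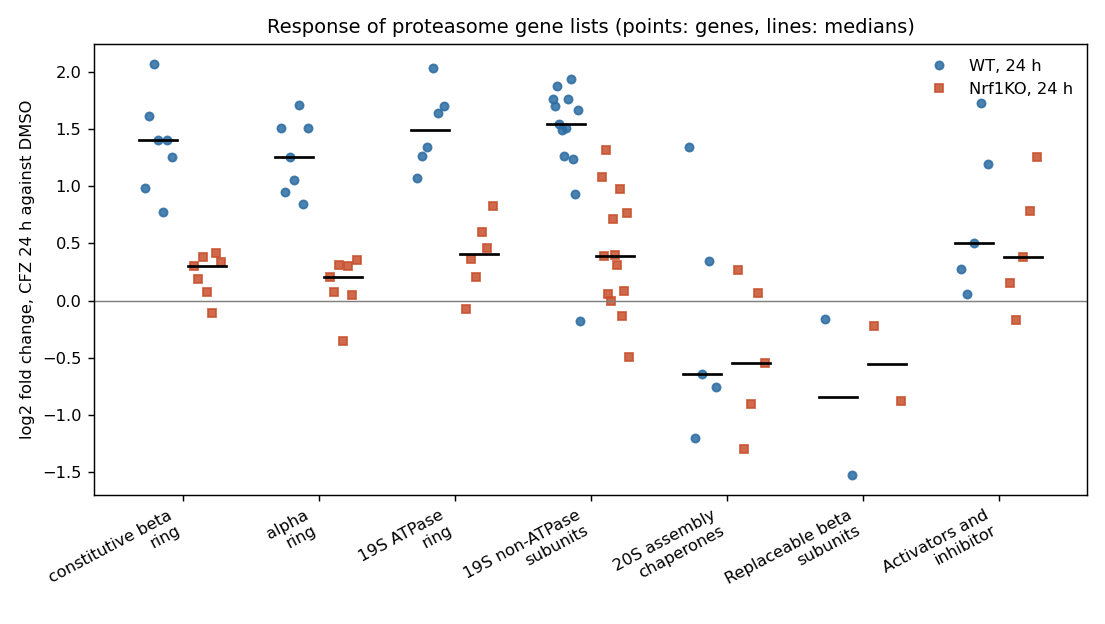
Log2 fold change of CFZ 24 h against DMSO (y axis) for the tested genes of each proteasome list (x axis), in WT (circles) and Nrf1KO (squares), with a black line for the median of each list. The beta ring medians are 1.40 in WT and 0.30 in Nrf1KO, with the alpha ring at 1.26 and 0.20, and the assembly chaperones lie on both sides of 0.

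Across the 18 libraries the 7 genes kept closely to a shared pattern, with Pearson r of log2 CPM between pairs from 0.939 for Psmb7 and Psmb5 to 0.998 for Psmb7 and Psmb6. The 6 lowest of these values were the 6 pairs that involve Psmb5. Psmb5 also had the lowest counts of the ring, 339 to 1567 per library, and shares stretches with Gm3375. The part of these limits in its lower values was not tested. The 5 genes outside the ring whose log2 CPM was most like the mean of the 7 standardised patterns were Psma5 (r = 0.998), Psmc3 (0.997), Psma7 (0.994), Psma3 (0.993) and Psma2 (0.991), of which 4 belong to the alpha ring and Psmc3 to the 19S ATPases. Of the 50 most alike genes, 15 were among the 38 tested genes of the other proteasome lists. These libraries share 6 groups, so that the values describe the pattern over groups more than over single libraries.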

How the data were processed

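RNA-sequencing of 18 libraries (6 groups of 3 biological replicates) was analysed. Per the labels and the methods of the study, the authors made stranded mRNA libraries, sequenced paired reads and aligned and compared them with STAR and DESeq2, and they deposited 1 table of raw counts per gene symbol. Versions, genome build, annotation and use of strand are not given in the sources used here, so that reads of overlapping or near-identical genes may have been assigned in ways not known here.

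Counts were fitted in R 4.3.3 with edgeR 4.0.16 (glmQLFit and glmQLFTest, limma 3.58.1) in 1 model of 6 groups, after filterByExpr (minimum count 10, minimum total 15) and TMM scaling. P-values were adjusted by the Benjamini-Hochberg method over 11762 genes, with a threshold of 0.05 and no minimum fold, in 12 comparisons, and they measure only the spread between these replicates. The script was tested on simulated counts. DESeq2 1.42.0, other scalings, filters, samples, a replicate block and each library left out were the alternatives, and the APPRIS principal transcript length was chosen after seeing the data. Gene coordinates came from GENCODE M21 (GRCm38) by symbol and promoters from RefSeq (GRCm38.p6). Figures were drawn with Python 3.11.15.

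The 7 genes, the proteasome lists and the tests were chosen with earlier results of these data known. Named genes were the 7 members, Nfe2l1, the replaceable subunits, the members of each list with the highest and lowest change in a comparison, and the 5 genes most like the ring. Library totals of 8333148 to 23917081 limit the precision of low genes such as Psmb8, Psmb9 and Psmb11.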

Additional observations from a re-analysis of the deposited data

Results flagged for a closer look

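All 7 beta ring genes are listed here because their response to CFZ differed between Nrf1KO and WT in an interaction test (edgeR quasi-likelihood, Benjamini-Hochberg adjusted). The values are the Nrf1KO response less the WT response on the log2 scale. At 6 h they were -1.64 for Psmb3, -1.36 for Psmb2, -1.22 for Psmb4, -1.04 for Psmb6, -0.87 for Psmb1, -0.86 for Psmb7 and -0.79 for Psmb5. At 24 h they were -1.69 for Psmb3, -1.43 for Psmb2, -1.33 for Psmb4, -0.99 for Psmb6, -0.92 for Psmb7, -0.88 for Psmb5 and -0.69 for Psmb1. The direction was the same in all alternatives run at both times. Psmb1 is also listed for a step from 6 h to 24 h that was larger in Nrf1KO, by 0.18, a call that was lost when counts were scaled by library size alone. That step was called in either direction for 43.0% of all genes. Causes of these differences were not tested.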

How the results depend on the processing

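For the WT responses, the comparisons of lines and the interactions with CFZ, the counts of ring genes called were within 1.5 times the reported ones under all alternatives run. The exceptions lay in Nrf1KO and in the interaction of line and time. Members called lower in Nrf1KO at 6 h numbered 5 with library size alone, in place of 2, and 0 to 2 with 1 library left out (0 without Nrf1KO CFZ 6 h replicate 1, and 1 without Nrf1KO CFZ 6 h replicate 3 or Nrf1KO DMSO replicate 2). At 24 h they numbered 2 with library size alone and 1 each with upper-quartile scaling and with no expression filter, in place of 0, and 0 to 1 with 1 library left out (1, Psmb5, without Nrf1KO CFZ 24 h replicate 3). For the interaction of line and time, library size alone gave 0 members called higher and 4 lower, in place of 1 and 0. Leaving out 1 library gave 0 to 1 lower (1, Psmb4 at -0.16, without Nrf1KO CFZ 24 h replicate 3). Of the 11762 genes tested, library size alone called 1610 higher and 3738 lower for this interaction, in place of 2438 and 2616. Library size alone called 5298 genes lower in Nrf1KO at 6 h, in place of 4114. At 24 h in Nrf1KO it called 5857 lower and upper-quartile scaling 5442, in place of 4829. With no expression filter 5324 were called lower there, not limited to those 11762.

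Signs turned for values close to 0. Scaling moves all genes by about the same amount. In Nrf1KO the median of all genes moved by -0.07 at 6 h and -0.11 at 24 h with upper-quartile scaling. With library size alone it moved by -0.11 and -0.18. The cause of the turns with 1 library left out was not tested. In Nrf1KO at 6 h Psmb2 was -0.0047 (upper-quartile) and -0.043 (library size alone), and Psmb7 was -0.022 and -0.060. Psmb6 was -0.050, -0.089 and, with no expression filter, -0.026. Psmb4 was -0.066, -0.10 and -0.041 in the same order and -0.011 with DESeq2. Psmb4 at 24 h in Nrf1KO was -0.036 and -0.11 under these scalings, its step from 6 h to 24 h was -0.0064 with library size alone, and the interaction of line and time of Psmb6 was then -0.045. With 1 library left out, Psmb4 in Nrf1KO ranged from -0.014 to 0.025 at 6 h, from -0.026 to 0.088 at 24 h and from -0.016 to 0.085 between these times. The interaction of line and time then ranged from -0.11 to 0.013 for Psmb2, from -0.068 to 0.016 for Psmb3 and from -0.080 to 0.0038 for Psmb7.

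With library size alone the percentage of called genes that were higher was 35.4 in place of 49.6 in WT at 6 h (37.9 with upper-quartile scaling), 36.4 in place of 49.7 in Nrf1KO at 6 h and 41.6 in place of 52.0 at 24 h. For Nrf1KO against WT it was 57.7 in place of 46.9 in DMSO and 60.8 in place of 49.8 at 6 h, and for the interaction of line and time 30.1 in place of 48.2. Libraries with the same replicate number did not deviate together (mean correlation 0.014, from -0.049 to 0.097 over 45 pairs), so that no shared replicate effect was seen. This cannot show whether same-numbered libraries were handled together, which the labels do not say. A fit with the replicate number as a block called 8521 genes in WT at 6 h and 10091 in Nrf1KO at 24 h, against 8452 and 10055, and changed no call of a ring gene. Depth limits Psmb8, Psmb9 and Psmb11, and the unknown treatment of shared reads limits Psmb5.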
